A study of Mus musculus with 4 samples.

Results

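The microRNAs named miR-297, miR-466, miR-467 and miR-669 form a rodent family whose hairpins lie mostly in 1 intron of the mouse gene Sfmbt2. They were taken by name from small RNA libraries of embryonic mouse fibroblasts (MEFs, cultured straight from embryos), with any letter, arm suffix or star allowed after the number. A row that 1 library listed and another did not was given a count of 0 there. This gave 41 of the 508 endogenous microRNA names, made up of 4 miR-297, 17 miR-466, 9 miR-467 and 11 miR-669 names. The miR-466 names include miR-466b-3-3p.

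All cells carried shLuc.1309, a short hairpin RNA (shRNA) whose target, luciferase, is not a mouse gene. Each of the 4 groups has 1 library: shLuc.1309 cells without and with doxycycline (dox), and shLuc.1309;ROSA-rtTA cells without and with dox. rtTA is a transactivator that, once it binds dox, switches on promoters of the tetracycline system, and ROSA names the broadly active Rosa26 locus. The labels do not give the dox dose or time, or which embryos and cultures the cells came from. Doxycycline with rtTA induces the shRNA, so the library of rtTA cells with dox is called the induced library below.

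MicroRNAs are cut from hairpin transcripts by Drosha and Dicer, and either arm of the hairpin, 5p or 3p, can be loaded into an Argonaute protein. The loaded strand pairs with target transcripts mainly through its seed, bases 2 to 8. Sfmbt2 encodes a Polycomb-related protein and is imprinted, with expression from the paternal copy in the early embryo and the placenta. Its intronic microRNAs arose by repeated duplication in rodents and are known from embryonic stem cells and placenta.

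In the mouse annotation (GENCODE M21, build GRCm38) Sfmbt2 spans bases 10370510 to 10595253 of chromosome 2 on the plus strand. It holds 119 annotated microRNA genes, and members also matched some of these that carry no family name. Of the 119, 71 hairpin genes have these family names, from base 10466663 to 10518279, and none of the 71 overlaps an exon. They all lie in 1 intron of 62472 bases, which is intron 10 or intron 11 depending on the transcript. The names split into 5 miR-297, 23 miR-466, 14 miR-467 and 29 miR-669 hairpins. The copies recur in a fixed order: a site of miR-467a, then miR-466e-3p, then miR-669a came in that order 11 times, and neighbouring miR-467a sites were 2413 to 2470 bases apart.

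By exact match of the listed sequence to annotated hairpins, 32 of the 41 members were placed in Sfmbt2 alone. Another 4 matched hairpins in Sfmbt2 and elsewhere, and 5 matched only elsewhere. These 5 are miR-466i on chromosome 13, miR-466j on chromosome 10, miR-466k on chromosome 3, miR-467g on chromosome 5 and miR-467h on chromosome 9. The label of an Sfmbt2 cluster thus does not cover all members. A listed sequence can also stand for many loci: 20 members matched more than 1 hairpin, with miR-669a at 15, miR-466e-3p at 14 and miR-467a at 12. No row outside the family matched a hairpin in Sfmbt2.

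Near-identical rows are common, and 34 members have another member at most 2 mismatches away. How the authors shared out reads that fit several names is not given in the sources used here, so the count of any single such member is uncertain between copies. No row outside the family came that close to a member.

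The sequences show 2 kinds of member, which mostly go with the arm they come from. The first set below holds the 8 most abundant 5p strands by mean CPM, which are rich in G and T. They are given 5′ to 3′ as listed (T for U), with the seed in capitals.

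miR-669a: aGTTGTGTgtgcatgttcatgt
miR-467e: aTAAGTGTgagcatgtatatgt
miR-669c: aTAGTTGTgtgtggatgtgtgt
miR-467c: tAAGTGCGtgcatgtatatgtg
miR-669b: aGTTTTGTgtgcatgtgcatgt
miR-467d: tAAGTGCGcgcatgtatatgcg
miR-669d: aCTTGTGTgtgcatgtatatgt
miR-297a: aTGTATGTgtgcatgtgcatgt

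The next set holds the 3p strands past the abundance floor given below, on which the comparisons turn. All but miR-466j are built from A, C and T with at most 2 G. For those with a single locus, miR-669f lies at chr2:10467285-10467307, miR-466d-3p at chr2:10512017-10512037 and miR-466g at chr2:10514642-10514662. miR-466i lies at chr13:17747552-17747573 and miR-466j at chr10:60960802-60960824. All are on the plus strand of GRCm38, and the first 3 are in the Sfmbt2 intron.

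miR-669f: cATATACAtacacacacacgtat
miR-466e-3p: tATACATAcacgcacacataaga
miR-466d-3p: tATACATAcacgcacacatag
miR-297c*: tATACATAcacacatacccata
miR-467d*: aTATACATacacacacctacac
miR-466i: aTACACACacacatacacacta
miR-466g: aTACAGACacatgcacacaca
miR-466j: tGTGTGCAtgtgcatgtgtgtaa

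Against these, 5p strands that share a hairpin with 3 of them are shown for the arm comparison.

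miR-466e-5p: gATGTGTGtgtacatgtacata
miR-466d-5p: tGTGTGTGcgtacatgtacatg
miR-297c: aTGTATGTgtgcatgtacatgt

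By position in the matched hairpin, 24 members are 5p and 16 are 3p strands, and miR-467h matched different arms of different hairpins. The 41 members hold 26 distinct seeds, 9 of them shared by several members. The seed ATACATA is common to miR-466e-3p, miR-466d-3p, miR-297c*, miR-467g and miR-466b-3-3p. The seed AAGTGCG is common to miR-467c and miR-467d, and TAAGTGT to miR-467e and miR-467h. Outside the family, miR-292-3p shares the seed of miR-467a and miR-1187 that of miR-466a-5p.

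The libraries hold 6378964 to 8774056 endogenous counts, and levels are given as counts per 1000000 of these (CPM), which leave out the shRNA. Since no group was repeated, no difference has a replicate check. The values compare libraries, not conditions, and all intervals are 95% intervals that cover counting error only, since reads amplified without molecular identifiers are not independent molecules. The shRNA took 0.0725% to 0.0786% of all counts in 3 libraries and 2.38% in the induced library. Fibroblast markers summed to 505014 to 532675 CPM, with 9 of 10 listed. Markers of embryonic stem cells and trophoblast, the cells best known for Sfmbt2 microRNAs, summed to 0.784 to 1.47 CPM, with 9 of 16 listed and none past the floor. Of these, miR-290-5p, miR-290-3p, miR-291a-5p, miR-291a-3p, miR-302c, miR-302d and miR-367 were not listed in any library. Muscle markers summed to 262, 246, 382 and 592 CPM (without rtTA untreated and treated, then with rtTA), with 4 of 4 listed, so this sum was highest in the induced library. The muscle microRNA miR-206 made up most of it, with 246, 234, 352 and 575 CPM, while miR-1 had 7.65 to 16.6 CPM and was highest in the uninduced rtTA library. The part of this difference in the results was not tested. Marker lists of neurons (601 to 762 CPM), blood (52.5 to 82.2 CPM), epithelium (4.86 to 17.4 CPM) and liver (2.51 to 3.99 CPM) stayed far below the fibroblast sum. A count of 0 allows up to 0.342 to 0.470 CPM (3 counts).

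The induced library also stood apart in base composition. Over the 372 microRNAs that passed the floor, its log2 ratio to the uninduced rtTA library had a Pearson correlation of 0.72 with the percentage of G. The same correlation was -0.20 for dox without rtTA and -0.0038 for rtTA without dox. It was 0.69 for rtTA with dox, which shares the induced library. These are correlations across microRNAs, which share their libraries and are not independent replicates.

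As a whole the family was a small part of the pool. Summed over all 41 members it reached 2293 CPM (no rtTA, -dox), 2077 CPM (no rtTA, +dox), 2057 CPM (rtTA, -dox) and 1771 CPM (rtTA, +dox). That is 0.229%, 0.208%, 0.206% and 0.177% of the endogenous counts. The untreated library without rtTA was the highest and the induced library the lowest, and the other 2 lay close together. In bulk RNA, fewer cells that make these microRNAs and less RNA per cell cannot be told apart.

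By family, miR-669 names summed to the most, between 865 CPM (rtTA, +dox) and 1118 CPM (no rtTA, -dox), followed by miR-467 names with 673 to 815 CPM. miR-466 names came to 294, 240, 234 and 158 CPM in the order of libraries above. The 4 miR-297 names gave 88.9, 82.6, 70.0 and 75.5 CPM. The order of the families was the same in each library.

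A member entered the comparisons at a mean of 3.14 CPM or more, the level that gives 20 counts in the library of least depth. Of the 41 members 28 passed, 19 of them 5p, 8 of them 3p and miR-467h. The 13 that did not pass had means of 0.0382 to 2.96 CPM and together 10.5 CPM.

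The most abundant members were 5p strands. miR-669a, described in cardiac progenitors as a brake on muscle differentiation, had 401 CPM (no rtTA, -dox), 317 CPM (no rtTA, +dox), 346 CPM (rtTA, -dox) and 314 CPM (rtTA, +dox). It ranked 137 among all 508 microRNAs by mean CPM and was highest in the untreated library without rtTA. miR-467e had 301, 340, 339 and 215 CPM in the same order, lowest in the induced library. miR-669c had 210, 172, 180 and 233 CPM and miR-467c had 210, 193, 186 and 198 CPM.

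miR-669c was highest in the induced library, whereas miR-467c stayed within a narrow range. miR-669b had 182, 147, 138 and 158 CPM. miR-467d had 139, 133, 112 and 153 CPM, and miR-669d had 116, 113, 131 and 105 CPM. miR-467h, placed on chromosome 9, had 86.1, 78.4, 82.3 and 72.6 CPM, and miR-297a had 69.6, 56.1, 54.0 and 59.8 CPM. None of these 9 was at least 2-fold apart between any compared libraries. The other 11 5p strands past the floor had means between 5.22 CPM (miR-669h-5p) and 40.9 CPM (miR-466h, known as a pro-apoptotic microRNA of nutrient-starved cells).

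**Figure D1:**
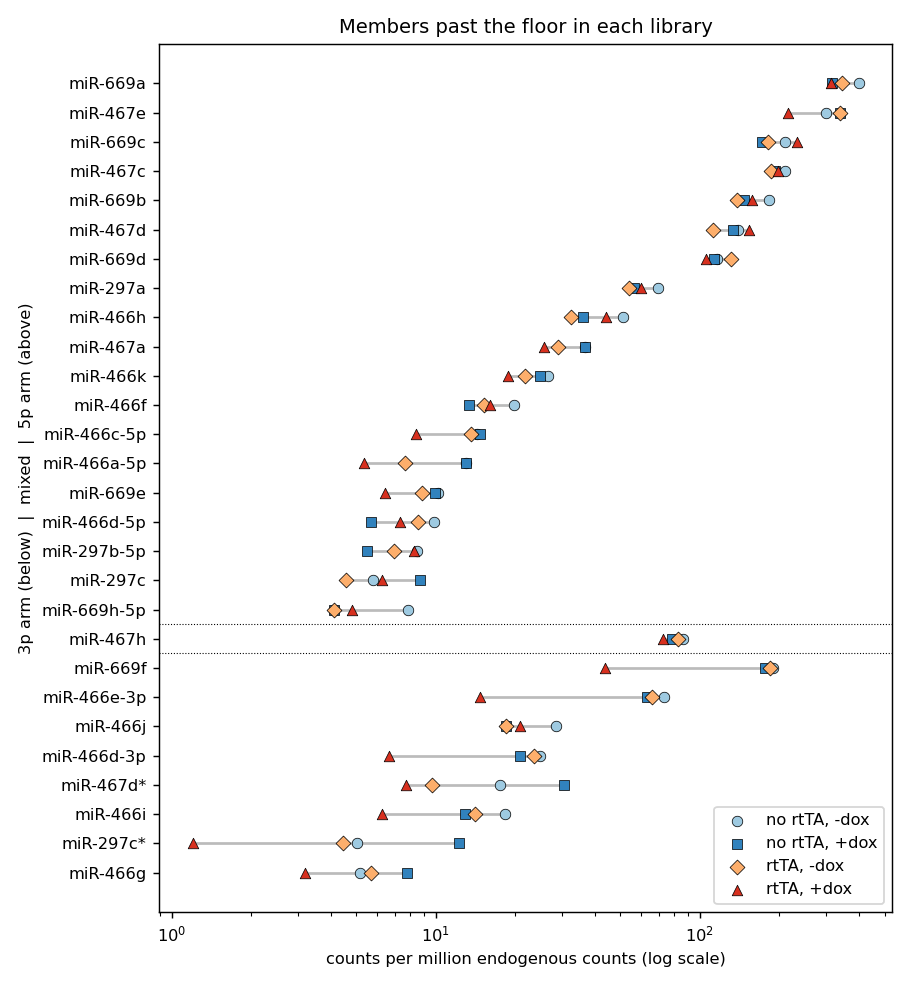
Level of each of the 28 members past the floor (rows) in the 4 libraries, in CPM of endogenous counts on a log axis, with 5p strands above, miR-467h between the dotted lines and 3p strands below. The red triangles (rtTA, +dox) lie within or near the other points for most 5p strands and lowest for 7 of the 8 3p strands, with miR-669f at 43.8 CPM against 177 to 190 CPM.

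The 3p strands were less abundant, and most were lowest in the induced library. miR-669f, the leading 3p strand, had 190 CPM (no rtTA, -dox), 177 CPM (no rtTA, +dox), 184 CPM (rtTA, -dox) and 43.8 CPM (rtTA, +dox). These rest on 1211, 1156, 1614 and 329 counts. The first 3 libraries lay close together and the induced library stood far below them.

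miR-466e-3p had 73.4, 62.8, 65.8 and 14.7 CPM in the same order, from 468, 411, 577 and 110 counts. Its sequence occurs in 14 hairpins of the intron, so it sums over many copies. miR-466d-3p, which shares its seed and differs near the 3′ end, had 24.8, 20.8, 23.6 and 6.66 CPM. Both followed miR-669f, with 3 libraries alike and the induced library low.

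The remaining 3p strands varied more among the uninduced libraries. miR-467d* had 17.6 CPM, 30.6 CPM, 9.69 CPM and 7.73 CPM, and miR-297c* had 5.02, 12.2, 4.44 and 1.20 CPM, the last from 9 counts. Both were highest in the dox-treated library without rtTA and lowest in the induced library. miR-466i, from chromosome 13, had 18.3, 12.8, 14.0 and 6.26 CPM, and miR-466g had 5.17, 7.80, 5.70 and 3.20 CPM. miR-466j, the 3p strand that is rich in G, had 28.4, 18.5, 18.5 and 20.8 CPM and was not lowest in the induced library.

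Of the 8 3p strands past the floor, 7 were lowest in the induced library, against 8 of the 19 5p strands and 16 of all 28 members. Over all 372 microRNAs, 42.2% were lowest there. The split by arm was chosen after the levels had been seen, so these counts are a description.

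Summed by arm, the 24 5p strands had 1841, 1650, 1646 and 1593 CPM, libraries ordered as before. The 16 3p strands had 366, 348, 328 and 105 CPM. The 5p sum in the induced library was close to those of the dox-treated library without rtTA and the uninduced rtTA library, while the 3p sum there was far below that of every other library. The 3p share of both arms was 16.6% (15.96% to 17.2%, Clopper-Pearson), 17.4% (16.8% to 18.1%), 16.6% (16.1% to 17.2%) and 6.20% (5.79% to 6.64%).

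The interval of the induced library did not overlap those of the others, which overlapped each other. Without miR-669f and miR-466e-3p, the leading 3p strands, the share was 5.27%, 6.16%, 4.54% and 2.86%. It was then still lowest in the induced library.

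**Figure D2:**
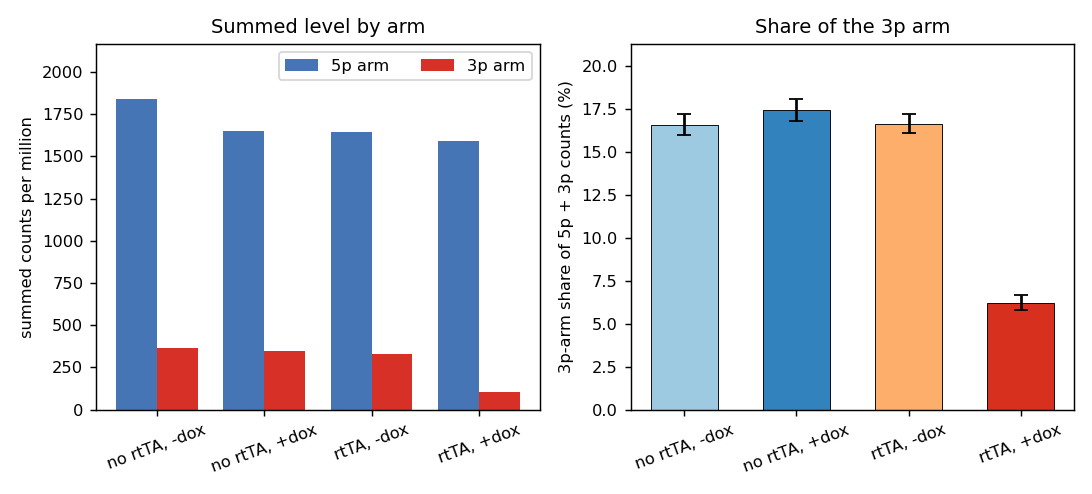
Left, summed CPM of the 24 5p-strand and 16 3p-strand members in each library. Right, the 3p share of both arms in percent with exact 95% binomial intervals, at 16.6% to 17.4% in 3 libraries and 6.20% in rtTA cells with dox.

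Dox in rtTA cells asks whether a strongly expressed shRNA goes with a changed microRNA pool. To be counted as higher or lower, a microRNA had to differ by 2-fold or more and its exact interval had to leave out equality. By this rule 5 of the 28 members were counted as lower with dox and 0 as higher, where 8.60% of all 372 microRNAs were lower and 1.34% higher. All 5 were 3p strands: miR-466e-3p (log2 ratio -2.17, -2.47 to -1.87), miR-669f (-2.07, -2.25 to -1.90), miR-297c* (-1.89, -3.12 to -0.82), miR-466d-3p (-1.82, -2.30 to -1.37) and miR-466i (-1.16, -1.68 to -0.67).

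With a 1.5-fold threshold 8 members were lower, where 17.7% of all microRNAs were. The other 3p strands were miR-466g at -0.83, miR-467d* at -0.33 and miR-466j at 0.17. The 8 3p strands had a median log2 ratio of -1.49 and the 19 5p strands one of 0.076, against -0.06 over all 372 microRNAs. The 5p ratios ran from -0.69 (miR-466c-5p) to 0.46 (miR-297c), and 17 of the 19 lay within 1.5-fold, where 69.9% of all microRNAs did. Among abundant 5p strands miR-467e was at -0.66 (-0.75 to -0.57), while miR-467d was at 0.45 (0.32 to 0.57) and miR-669c at 0.37 (0.27 to 0.47). The sum of all members had a log2 ratio of -0.22 (-0.25 to -0.18). That of the 3p strands was -1.64 (-1.75 to -1.52) and that of the 5p strands -0.05 (-0.08 to -0.01).

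The members counted as lower had at most 9.52% G. So did miR-467d* (0% G) and miR-466g (9.52% G), which were not counted as lower. The 3p strands past the floor had a median of 6.52% G and the 5p strands one of 31.8% G, against 23.8% over all microRNAs. Among the 28 members the correlation of the log2 ratio with the percentage of G was 0.80, and it was 0.52 among the 19 5p and 0.53 among the 8 3p strands. miR-466j, the 3p strand with 34.8% G, had a ratio of 0.17, which lies among those of the 5p strands. The 3p correlation rests mainly on this strand. Among the other 3p strands past the floor, which have at most 9.52% G, ratios ran from -2.17 (miR-466e-3p, 8.70% G) to -0.33 (miR-467d*, 0% G). Arm and base composition mostly go together in this family, and the part of either in the result was not tested. Past the floor, miR-466j was the exception among 3p strands, and miR-467h (27.3% G) matched both arms.

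With a linear trend on G over all 372 microRNAs subtracted, 3 members were still counted as lower: miR-466e-3p (-1.35, -1.66 to -1.05), miR-669f (-1.07, -1.24 to -0.90) and miR-466d-3p (-1.04, -1.52 to -0.59). Over all microRNAs 1.34% were lower and 0.806% higher after this step. Of the other 3p strands past the floor, miR-297c* was then at -0.70, miR-466j at -0.13, miR-466g at -0.05 and miR-466i at 0.024. miR-467d* was above 0 at 0.86 (0.35 to 1.36), under the 2-fold threshold. The median of the 3p strands was -0.42 and that of the 5p strands -0.19.

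**Figure D3:**
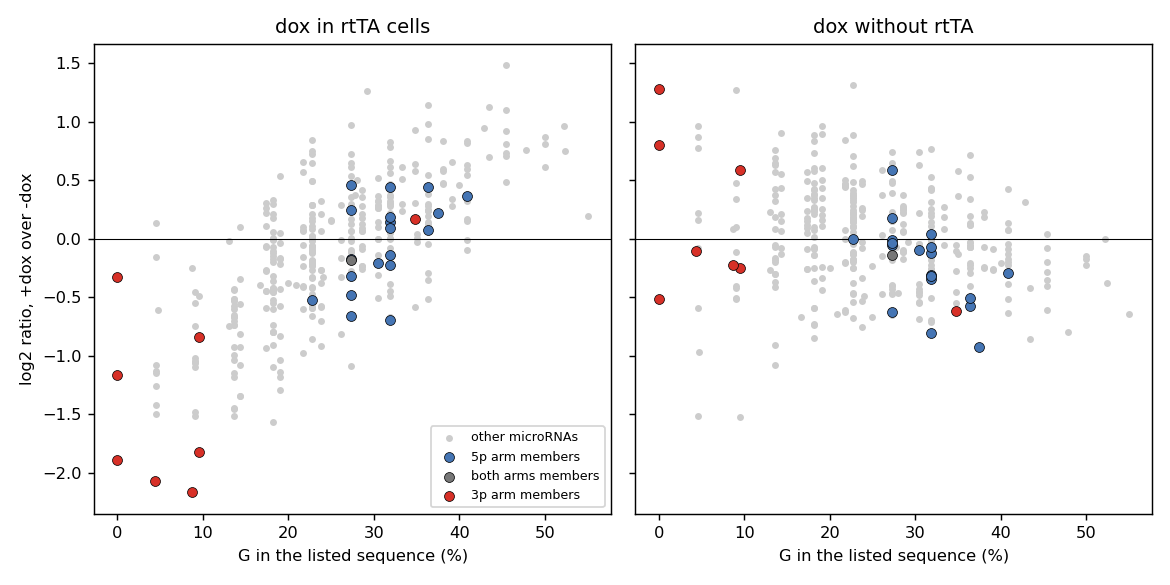
Log2 ratio of +dox over -dox against the percentage of G in the listed sequence, for all 372 microRNAs past the floor (grey) and the 28 members (coloured by arm), with rtTA on the left and without on the right. With rtTA the 3p members with at most 9.52% G lie between -2.17 and -0.33, at the lower end of a rising cloud with a correlation of 0.72, while without rtTA the cloud has a correlation of -0.20.

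In cells without rtTA, dox is given but the shRNA is not induced. Here 1 of the 28 members was counted as higher, miR-297c* (1.29, 0.68 to 1.93, on 32 and 80 counts), and 0 as lower. Of all microRNAs 0.806% were higher and 0.806% lower. At 1.5-fold 2 members were higher and 3 lower, where 7.53% of all microRNAs were higher and 7.80% lower. The leading 3p strands were near equality, with miR-669f at -0.10 (-0.22 to 0.01), miR-466e-3p at -0.22 and miR-466d-3p at -0.25. Among the 5p strands, miR-669a was at -0.34 (-0.42 to -0.26), miR-669b at -0.32 and miR-669c at -0.29, whereas miR-467e was at 0.18 (0.09 to 0.27).

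In this comparison 22 of the 28 members lay below 0, where 201 of all 372 microRNAs did. The median of the members was -0.13 against -0.04 over all microRNAs. The sum of all members was at -0.14 (-0.18 to -0.11) and that of the 3p strands at -0.07 (-0.16 to 0.01). The largest ratios below 0 were those of miR-669h-5p (-0.92, on 50 and 27 counts) and miR-466d-5p (-0.80, on 63 and 37 counts), both under 2-fold.

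The dox ratios of the libraries with and without rtTA were 2-fold or more apart for 7 members, with 6 lower and 1 higher where rtTA was present. Of all microRNAs 12.4% were lower and 5.65% higher by this rule. Its intervals come from counting error alone, with 0.5 added to each count. For the summed 3p strands the difference was -1.57 (-1.71 to -1.42) and for the summed 5p strands 0.11 (0.06 to 0.16). For all members together it was -0.07 (-0.12 to -0.03), a value that was 0.0055 with TMM scaling.

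**Figure D4:**
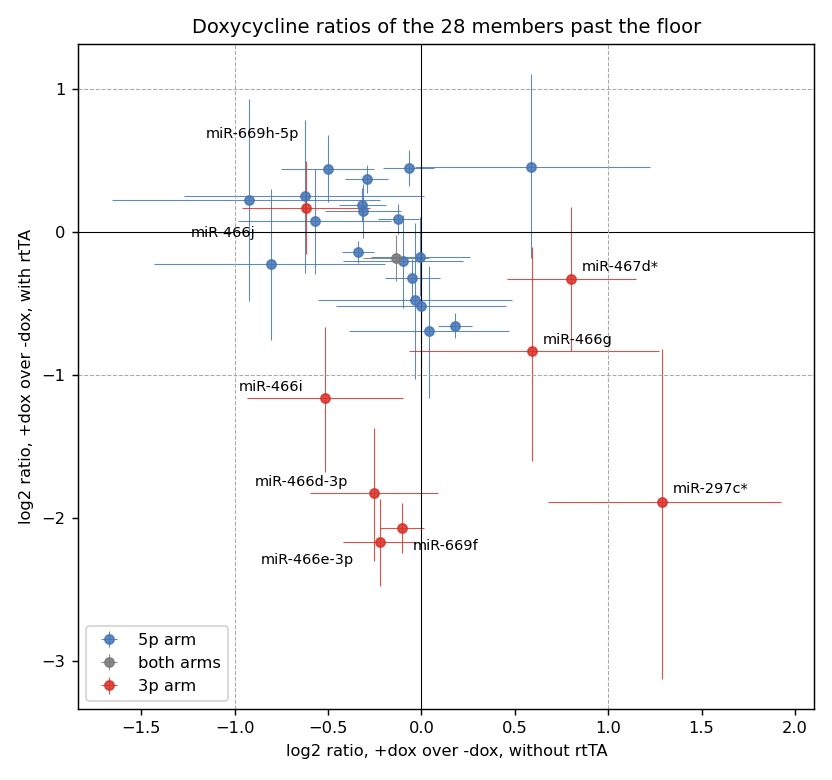
Log2 ratio of +dox over -dox with rtTA (vertical axis) against that without rtTA (horizontal axis) for the 28 members past the floor, coloured by arm, with exact 95% counting intervals and dashed lines at 2-fold. The 3p strands miR-669f, miR-466e-3p and miR-466d-3p lie between -0.25 and -0.10 on the horizontal axis and between -2.17 and -1.82 on the vertical axis, while no 5p strand passes -1 on either axis.

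Without dox the 2 genotypes can be compared with the shRNA uninduced. 0 of the 28 members were counted as higher and 0 as lower, where 0.538% of all microRNAs were higher and 1.34% lower. With a 1.5-fold threshold 5 members were lower, where 6.99% of all microRNAs were. Most members lay slightly below 0, 25 of the 28, where 217 of all 372 microRNAs were below 0. The median of the members was -0.25 against -0.07 over all microRNAs. miR-669f was at -0.05 (-0.15 to 0.06), miR-669a at -0.21 and miR-669b at -0.40, while miR-467e was at 0.17 and miR-669d at 0.17. The sum of all members was at -0.16 (-0.19 to -0.13), with 5p strands at -0.16 and 3p strands at -0.16.

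With dox in both genotypes, the induced library was set against the treated library without rtTA. This shares a library with each dox comparison. Here 8 of the 28 members were counted as lower and 0 as higher, where 14.2% of all microRNAs were lower and 2.42% higher. They were 7 of the 8 3p strands and the 5p strand miR-466a-5p (-1.29, -1.87 to -0.73, on 85 and 40 counts). miR-297c* was lowest at -3.35 (-4.53 to -2.35), followed by miR-466e-3p at -2.10, miR-669f at -2.01 (-2.19 to -1.83), miR-467d* at -1.98 and miR-466d-3p at -1.64. miR-466g was at -1.29 and miR-466i at -1.04, a value that was -0.94 with TMM scaling and -0.93 with DESeq2 size factors, under the threshold. With near-identical rows summed, 5 of 12 groups of members were lower, where 14.6% of all groups were.

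miR-466a-5p has 22.7% G, the least of the 5p strands. The median of the 3p strands was -1.81 and that of the 5p strands 0.036, against -0.07 over all microRNAs. The correlation with the percentage of G among the 28 members was 0.88. With the trend on G subtracted 2 members were lower, miR-297c* (-1.87) and miR-466e-3p (-1.07), and the 3p median was -0.58. Over all microRNAs 3.49% were lower and 2.15% higher after this step.

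Against each of the other 3 libraries, the induced library was at least 2-fold lower in 5 members, namely miR-669f, miR-466e-3p, miR-466d-3p, miR-466i and miR-297c*. By the same rule 4.30% of all microRNAs were lower. miR-669f was 4.33-fold higher in untreated cells without rtTA, 4.03-fold higher in dox-treated cells without rtTA and 4.20-fold higher in untreated rtTA cells than in the induced library. For miR-466e-3p these folds were 5.01, 4.29 and 4.49.

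The arms were also compared within each library, where their ratio does not depend on the scaling between libraries. Names do not pair single hairpins, since 1 sequence can leave several copies: miR-466e-3p matched 14 hairpins, miR-467d* 12 and miR-297c* 4, while miR-466e-5p matched 2 and miR-467d and miR-297c 1 each. Each 3p strand was therefore set against the sum of the 5p members of its matched hairpins, a grouping chosen after the levels had been seen. The matched copies of both arms still differ in part, so their ratio can also move with which copies were transcribed, and this was not tested. These 3p strands also hold less G than their 5p partners, and the part of this in the shares was not tested.

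miR-466d-3p, with 1 hairpin, was set against miR-466d-5p, which matched 2. In the order of libraries used above its 3p share was 71.5%, 78.6%, 73.4% and 47.6% (37.8% to 57.6%). For miR-466e-3p the share was 69.3%, 66.3%, 72.8% and 46.8% (40.3% to 53.4%). Both 3p strands held the majority in 3 libraries and close to equal parts in the induced library.

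For miR-297c* the share was 5.64%, 14.8%, 6.35% and 1.59% (0.728% to 2.99%), so the 5p strands led in every library. For miR-467d* it was 9.05%, 15.2%, 6.39% and 4.14% (3.16% to 5.32%). All 4 shares were lowest in the induced library. Its interval lay below those of the other 3 libraries for all but miR-467d*, where it overlapped that of the uninduced rtTA library (5.14% to 7.84%). By name alone, miR-466f, miR-467e and miR-669h were almost wholly 5p, with 3p shares of at most 9.92%, 0.714% and 3.57%.

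**Figure D5:**
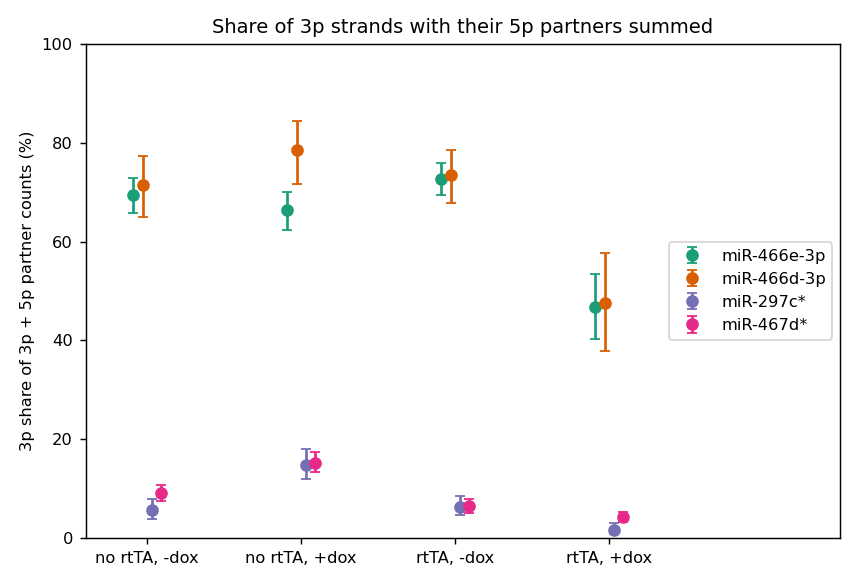
Share of each of 4 3p strands (colours) among its own counts plus those of its 5p partners, in percent with exact 95% binomial intervals, in the 4 libraries. All 4 have their lowest value in rtTA cells with dox, 46.8% for miR-466e-3p, 47.6% for miR-466d-3p, 1.59% for miR-297c* and 4.14% for miR-467d*.

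The 5p partners of miR-466e-3p, namely miR-466a-5p, miR-466b-5p, miR-466c-5p and miR-466e-5p, summed to 32.5, 32.0, 24.6 and 16.6 CPM, with a log2 ratio of -0.56 (-0.89 to -0.24) for dox in rtTA cells against -2.17 for miR-466e-3p. Those of miR-467d*, namely miR-467a, miR-467b and miR-467d, summed to 177, 170, 142 and 179 CPM. Their ratio was 0.34 (0.22 to 0.45), against -0.33 for miR-467d*. The 5p partners of miR-297c*, namely miR-297a, miR-297b-5p and miR-297c, summed to 83.9, 70.3, 65.5 and 74.3 CPM, with a ratio of 0.18 (0.01 to 0.35) against -1.89. In each of these sets the 3p strand had the lower ratio before the trend on G was subtracted. With the trend subtracted, miR-467d* was at 0.86, above miR-467d at 0.28 and miR-467a at -0.15. miR-466e-3p (-1.35) and miR-297c* (-0.70) stayed below each of their partners past the floor.

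Grouped by seed, the family offers its possible targets a few prevailing sequences. TAAGTGT (miR-467e and miR-467h) summed to 387, 419, 421 and 288 CPM, with a log2 ratio of -0.55 (-0.63 to -0.47) for dox in rtTA cells. GTTGTGT, carried by miR-669a alone, was next by mean level. AAGTGCG (miR-467c and miR-467d) had 349, 326, 298 and 351 CPM, with a ratio of 0.24 (0.16 to 0.31).

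The 3p seed ATACATA sums 5 members. The sum is the same whichever of them a shared read was given to, but not if such a read was counted under several names. This seed had 103, 96.3, 94.5 and 22.6 CPM. Its ratio was -2.06 (-2.31 to -1.82) for dox in rtTA cells and -0.10 (-0.26 to 0.06) for dox without rtTA. The 3p seed TATACAT of miR-467d* and miR-467e* had 18.8, 33.0, 10.4 and 8.12 CPM, with ratios of -0.35 (-0.84 to 0.13) and 0.81 (0.48 to 1.15). The 3p seeds thus did not all follow the same order of libraries. GTGTGCA, on the 5p strand miR-466h and the 3p strand miR-466j, had 79.5, 54.6, 50.8 and 64.7 CPM, and TGTATGT of the miR-297 5p strands had 83.9, 70.3, 65.5 and 74.3 CPM.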

How the data were processed

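The authors deposited raw read counts per microRNA name and library, with 1 further row for the luciferase shRNA, per the file headers. Not given in the sources used here are the aligner, the mismatches allowed, the treatment of shared reads, the genome build and the microRNA database. Each read is a whole strand, so levels need no length scaling. Totals were 6383594, 6545093, 8780954 and 7690978 counts. CPM and log2 ratios were computed from the counts with Python 3.11.15 and SciPy 1.17.1, with exact conditional binomial (Clopper-Pearson) intervals and no p-value. The intervals were tested on simulated counts that held counting error only, so that test does not cover spread between libraries or shared reads. TMM factors came from edgeR 4.0.16 and size factors from DESeq2 1.42.0. Near-identical means at most 2 mismatches without gaps, an offset of up to 2 and an overlap of at least 18 bases. Members were matched to GENCODE M21 hairpins (GRCm38). By sequence 5 of 41 matched the RefSeq mature table. The members and lists were chosen with earlier results of these data known. Named were the 10 most abundant members, every member counted as higher or lower, both arms of paired hairpins, the leading seed groups, members listed in 1 library, and other rows sharing a seed.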

Additional observations from a re-analysis of the deposited data

Results flagged for a closer look

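For 7 members the dox ratio with rtTA and that without rtTA were 2-fold or more apart, and the interval for counting error left out equality. With 1 library per group, this was not tested against the spread between replicates. The difference (log2 ratio with rtTA minus without) was -3.10 for miR-297c*, -1.96 for miR-669f, -1.94 for miR-466e-3p, -1.56 for miR-466d-3p, -1.40 for miR-466g and -1.12 for miR-467d*, all 3p strands with at most 2 G. It was 1.14 (0.20 to 2.08) for the 5p strand miR-669h-5p, which rests on 50, 27, 36 and 36 counts. For miR-297c*, miR-466g and miR-467d* the ratios without rtTA were above 0 (1.29, 0.59 and 0.80), so the dox-treated library without rtTA enters their differences as well.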

How the results depend on the processing

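No paired analysis was possible because each group has 1 library and the labels carry no replicate numbers, and no library could be left out of a comparison of 2. For dox in rtTA cells, members counted as lower went from 5 to 3 with the trend on G subtracted and to 8 with a 1.5-fold threshold, where 17.7% of all microRNAs were lower. For rtTA with dox they went from 8 to 2 with the trend on G subtracted and to 5 of 12 with near-identical rows summed, where 14.6% of all such groups were lower. A 1.5-fold threshold gave 2 higher and 3 lower for dox without rtTA (7.53% and 7.80% of all microRNAs) and 5 lower for rtTA without dox (6.99%). The log2 ratio of the summed members moved with TMM scaling to -0.18 (dox in rtTA cells), -0.19 (dox without rtTA) and -0.13 (rtTA with dox), and with DESeq2 size factors to -0.11 (rtTA without dox) and -0.13 (rtTA with dox). The difference of the summed dox ratios turned from -0.07 to 0.0055 with TMM and was -0.018 with DESeq2 size factors. TMM and DESeq2 raised all ratios of rtTA with dox by 0.101 and 0.104. With the trend on G subtracted, miR-466i turned to 0.024 (dox in rtTA cells) and 0.44 (rtTA with dox). Alternatives chosen after seeing the data split the members by arm or place. With 5p strands alone, 0 (dox in rtTA cells) and 1 (rtTA with dox) were lower, 0 were higher for dox without rtTA, and the medians turned from -0.19 to 0.076 and from -0.26 to 0.036. With 3p strands alone the medians were -1.49 and -1.81. Of the 14 member ratios counted as higher or lower, 13 passed the rule with TMM, 13 with DESeq2 size factors, 14 without the 10 most abundant microRNAs and 6 with the trend on G subtracted. The cause of these shifts was not tested. Depth limits the rarest members: miR-297c* in the induced library rests on 9 counts.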

Other observations

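The 13 members under the floor included the rarer arms of well-listed hairpins. miR-467e* had 8, 16, 6 and 3 counts and miR-466f-3p had 7, 12, 3 and 4 counts in the order of libraries used throughout (without rtTA untreated and treated, then with rtTA untreated and treated). miR-466l, described as a regulator of Il10, had 2, 2, 0 and 0 counts. miR-669h-3p and miR-669j were listed in 1 library alone, that of treated cells without rtTA, with 1 count each. The family was listed with 38, 40, 38 and 36 members in the 4 libraries.

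Bases 2 to 7 of miR-467a, miR-467c and miR-467d read AAGTGC, the hexamer of the embryonic stem cell microRNAs of the miR-290 and miR-302 clusters. In these fibroblasts the listed microRNAs outside the family with that hexamer, miR-291b-3p, miR-292-3p, miR-294, miR-295, miR-302a and miR-302b, had at most 4 counts in any library. miR-467c alone had 1340, 1262, 1629 and 1485 counts. Bases 2 to 7 of miR-467d* and miR-467e*, TATACA, are shared with let-7c-2*, which had 58.2, 99.8, 85.1 and 30.1 CPM, and with let-7f*, which had 11.8, 11.2, 11.2 and 5.06 CPM. They are also shared with let-7b*, which had 8.31, 2.91, 5.81 and 6.39 CPM and was lowest in the dox-treated library without rtTA.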
